A study of Homo sapiens with 6 samples.

Results

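The cytosolic chaperonin CCT, also called TRiC, is assembled from the products of 8 genes: TCP1, CCT2, CCT3, CCT4, CCT5, CCT6A, CCT7 and CCT8. All 8 were taken by name from a count table of 36601 gene rows, and all 8 were among the 17839 genes that passed a filter on low counts. They were compared in U2OS cells, a human osteosarcoma line, that carried doxycycline-induced TDP-43-mNLS-Clover, a green-tagged TDP-43 whose nuclear localization signal is mutated. Every culture was induced and thus expressed the tagged protein. The aggregates group (3 libraries) received 50 nM fibril seeds of the TDP-43 low-complexity domain with a lipid reagent and was sorted after 48 hours for cells with Clover aggregates. The diffuse group (3 libraries) received protein storage buffer without seeds and was sorted for cells with diffuse Clover signal, so seeding and sort gate coincide and cannot be told apart. The labels describe separate transfections of the same line, polyA RNA and the same batch for all 6 libraries.

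CCT is a pair of stacked rings, and each ring holds a single copy of every subunit at a fixed position. It encloses newly made proteins, above all actin, tubulins and many proteins with WD repeats, and folds them with energy from ATP. Prefoldin hands unfolded actin and tubulin to the rings, and phosducin-like proteins act as co-factors. TCP1, CCT2, CCT4 and CCT5 lie side by side and bind ATP more tightly than CCT3, CCT6A, CCT7 and CCT8 on the other side of the ring.

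The gene counts summed to 40279084 to 46863013 per library. TARDBP, which encodes TDP-43 and whose count joins the endogenous gene and the transgene, lay at 2534 to 2618 CPM (the usual per-library scaling of counts, here with TMM-adjusted library sizes) in the aggregates libraries and 7267 to 7685 CPM in the diffuse libraries. Between the groups, 37.6% of all tested genes fell in aggregates libraries and 37.8% rose. Of 8 osteosarcoma and mesenchymal markers 7 passed the filter, of which 4 fell (COL1A1, COL1A2, CDH11 and VIM) and 2 rose (RUNX2 and ALPL), and TWIST1 was at no more than 0.0476 CPM. Their summed level was 3489 to 3794 CPM in aggregates against 5764 to 5995 CPM in diffuse libraries. COL1A1 was at 1397 to 1584 against 3146 to 3296 CPM and RUNX2 at 49.6 to 52.8 against 33.3 to 35.8 CPM. Of 11 markers of other cell types 6 passed the filter, of which 2 rose (CD68 and RBFOX3) and 1 fell (SYT1). Their summed level was 49.3 to 54.1 CPM in aggregates and 42.9 to 44.4 CPM in diffuse libraries, CD3E and ALB were at 0 in 4 and 5 of the 6 libraries, and the part of either marker list in the results below was not tested. Mitochondrially encoded genes took 3.30 to 3.48% of counts in aggregates libraries, 2.53 and 2.54% in diffuse libraries 3 and 1, and 3.37% in diffuse library 2.

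All 8 subunit genes rose in cells with aggregates, by 1.47 to 1.78 fold. Their summed level was 4097, 4097 and 4150 CPM in aggregates libraries 1, 2 and 3 against 2522, 2378 and 2500 CPM in diffuse libraries 1, 2 and 3. This is 4115 ± 30.3 against 2467 ± 77.2 CPM (mean ± SD, n = 3), a ratio of 1.67. In none of the 8 genes did the groups overlap. In this comparison 37.8% of all tested genes rose, 75.4% changed in either direction, and 76.2% had groups that did not overlap. The median log2 fold change (aggregates over diffuse) was 0.76 for the 8 subunits and 0.0096 for all tested genes. Each subunit ranked between percentile 82.7 and percentile 90.6 of all log2 fold changes, so they lay in the upper part of the distribution without reaching its end. When tested against a fold of 1.2 rather than any change, all 8 still rose, as did 25.1% of all tested genes. The test was edgeR's quasi-likelihood test with Benjamini-Hochberg adjustment over all tested genes, and the highest adjusted p among the 8 was 8.61e-26. Counts from a bulk library cannot tell fewer cells of a type from less RNA per cell.

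**Figure D1:**
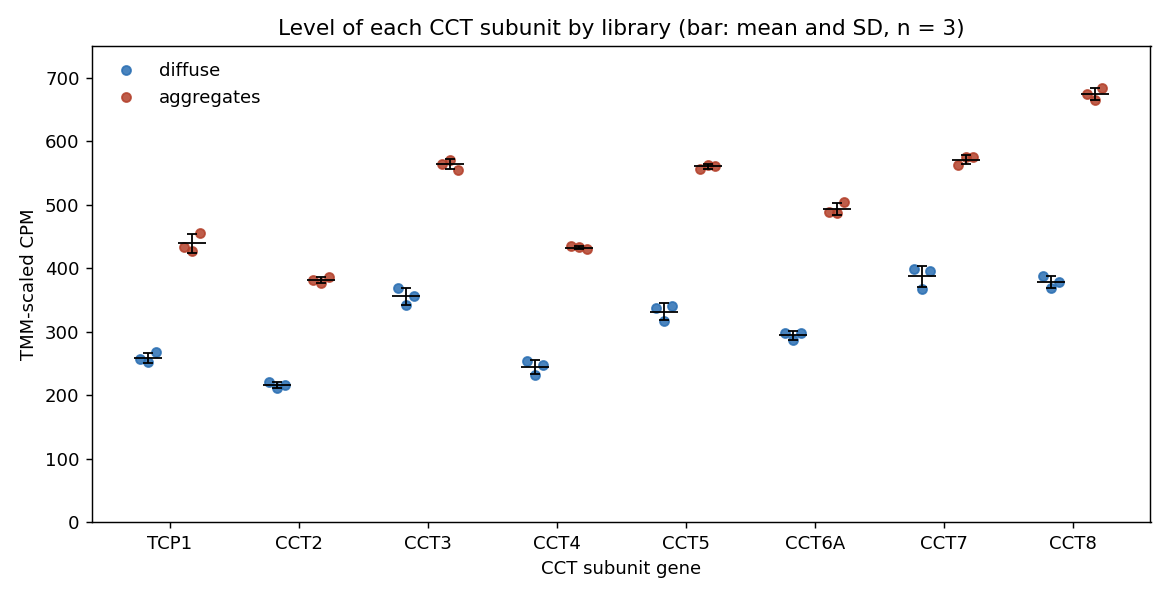
TMM-scaled CPM (vertical axis, from 0) of the 8 subunit genes in each diffuse (blue) and aggregates (red) library, with black bars for the mean and SD of n = 3. For every gene the 3 aggregates libraries lie above the 3 diffuse libraries, from 377 to 385 against 211 to 221 CPM for CCT2 up to 664 to 684 against 369 to 388 CPM for CCT8.

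On the side of the ring with tight ATP binding, TCP1 (CCT alpha, chromosome 6, 159778498 to 159789749, minus strand, GRCh38) gave the complex its name. It had 434, 427 and 455 CPM in aggregates libraries 1, 2 and 3 and 257, 253 and 268 CPM in diffuse libraries 1, 2 and 3. The log2 fold change was 0.76 (SE 0.04, adjusted p = 4.00e-35, edgeR), and both groups were highest in their library 3. CCT2 (CCT beta, chromosome 12, 69585334 to 69601570, plus strand) is a neighbour of CCT4 in the ring. It was at 382, 377 and 385 CPM in aggregates and 221, 211 and 215 CPM in diffuse libraries, a log2 fold change of 0.82 (SE 0.04, adjusted p = 3.32e-38). CCT4 (CCT delta, chromosome 2, 61868089 to 61888804, minus strand) is a subunit in which a missense change causes sensory neuropathy in rats. It lay at 435, 433 and 430.1 CPM in aggregates libraries, the narrowest spread of the 8, and at 254, 233 and 248 CPM in diffuse libraries, also with a log2 fold change of 0.82 (SE 0.04). CCT5 (CCT epsilon, chromosome 5, 10249921 to 10266412, plus strand) is mutated in a hereditary sensory neuropathy of humans. It had 556, 563 and 561 CPM in aggregates and 337, 316 and 341 CPM in diffuse libraries, a log2 fold change of 0.76 (SE 0.04). These 4 genes together spanned log2 fold changes of 0.76 to 0.82.

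The 4 genes of the other side spanned a wider range, 0.56 to 0.83. CCT3 (CCT gamma, chromosome 1, 156308968 to 156367873, minus strand) was at 564, 571 and 555 CPM in aggregates and 369, 342 and 356 CPM in diffuse libraries. Its log2 fold change was 0.66 (SE 0.04, adjusted p = 8.24e-31), the second smallest rise. CCT6A (CCT zeta, chromosome 7, 56051630 to 56063989, plus strand) is the form of the zeta subunit made in most tissues. It had 489, 486 and 504 CPM in aggregates and 297, 287 and 299 CPM in diffuse libraries, a log2 fold change of 0.74 (SE 0.04). CCT7 (CCT eta, chromosome 2, 73233420 to 73253021, plus strand) had 562, 575 and 575 CPM in aggregates and 398, 368 and 396 CPM in diffuse libraries. Its rise was the smallest of the 8, 0.56 (SE 0.04, adjusted p = 8.61e-26). CCT8 (CCT theta, chromosome 21, 29055805 to 29073797, minus strand) had 674, 664 and 684 CPM in aggregates and 388, 369 and 378 CPM in diffuse libraries. It had the largest rise, 0.83 (SE 0.04, adjusted p = 7.14e-38). The smallest rise lay on this side of the ring, and by a narrow margin also the largest. The log2 fold changes of CCT4 and CCT2, on the side with tight ATP binding, differed from that of CCT8 by only -0.011 and -0.012. In the fit with GC and length offsets described below, the largest rise was that of CCT5 (0.85), also on the side with tight ATP binding.

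Whether the subunits moved in step was asked by scaling every library to the geometric mean of the 8 subunit counts and testing each gene against that reference. A subunit that follows the mean change of the complex is at 0 on this scale. The reference is the mean of the same 8 genes, so a lag of some subunits by itself gives others a lead. Of the 8 subunits 5 (62.5%) departed from the mean change, as did 86.5% of all tested genes under the same scaling, where most genes lag behind a complex that rose. The departures were small, with an SD of 0.093 (log2) over the 8 subunits against a median rise of 0.76, and the whole range of their rises was 0.27.

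CCT7 lagged most. Its share of the summed subunit counts went from 15.7 ± 0.204% in diffuse to 13.9 ± 0.156% in aggregates libraries (n = 3). Its change differed from the mean of the 8 by -0.19 (SE 0.030, 95% interval -0.25 to -0.12, adjusted p = 1.49e-06, edgeR quasi-likelihood test). CCT3 lagged as well, by -0.082 (SE 0.031, 95% interval -0.15 to -0.019, adjusted p = 0.0149, edgeR), its share going from 14.4 ± 0.198% to 13.7 ± 0.285%.

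CCT8, CCT4 and CCT2 led by similar amounts, relative to a mean that the lagging CCT7 and CCT3 lower. How much of each lead comes from that lag was not tested. The change of CCT8 exceeded the mean by 0.088 (SE 0.030, 95% interval 0.027 to 0.15, adjusted p = 0.00791, edgeR), its share rising from 15.3 ± 0.199% to 16.4 ± 0.145%. CCT4 exceeded it by 0.077 (SE 0.031, 95% interval 0.014 to 0.14, adjusted p = 0.0223) and CCT2 by 0.076 (SE 0.031, 95% interval 0.012 to 0.14, adjusted p = 0.0246). TCP1, CCT5 and CCT6A could not be told from the mean change. Their departures were 0.015 (95% interval -0.051 to 0.081, adjusted p = 0.672), 0.012 (-0.049 to 0.074, adjusted p = 0.703) and -0.00069 (-0.063 to 0.062, adjusted p = 0.984). Over all 28 pairs of subunits, the largest difference of log2 fold changes was 0.27, between CCT8 and CCT7.

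**Figure D2:**
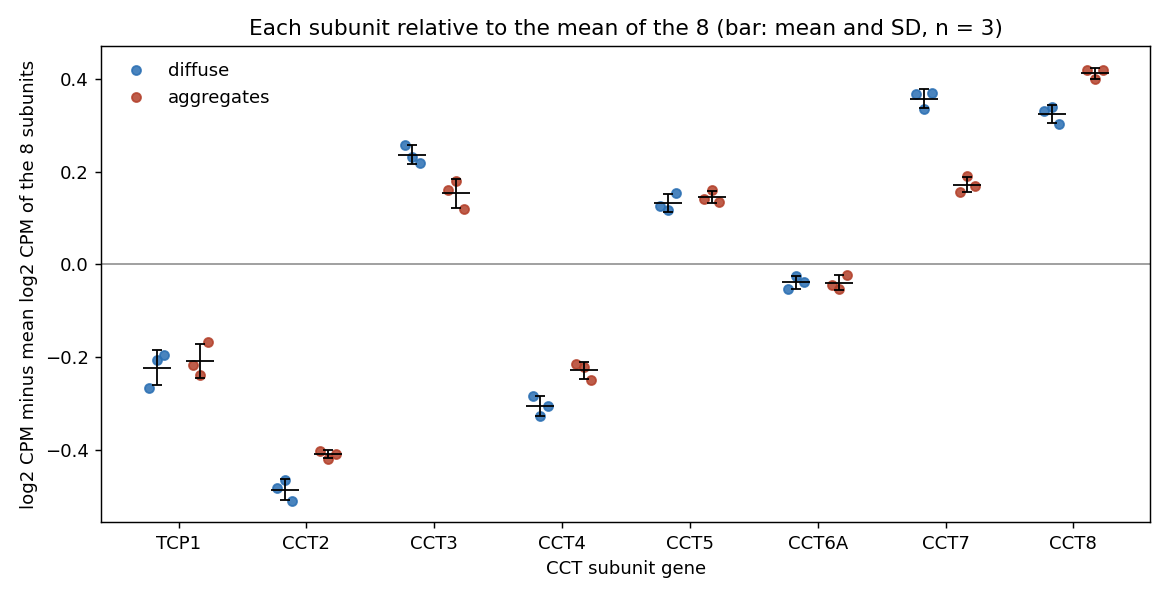
Log2 CPM of each subunit minus the mean log2 CPM of the 8 (vertical axis) in each diffuse (blue) and aggregates (red) library, with black bars for mean and SD of n = 3. CCT7 drops from 0.36 to 0.17 and CCT8 goes from 0.32 to 0.41, while TCP1, CCT5 and CCT6A have overlapping groups.

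The lag of CCT7 was the departure that held in each alternative fit except the test against a fold of 1.2, which no subunit's departure passed (adjusted p = 0.983 for CCT7). Without any 1 library the departure of CCT7 stayed between -0.20 and -0.18, with an adjusted p of at most 5.27e-05 (edgeR). The number of departing subunits fell from 5 to 3 without aggregates replicate 1, where CCT2 (adjusted p = 0.0686) and CCT4 (0.0744) missed the threshold. It fell to 2 without diffuse replicate 3, where CCT2 (0.130), CCT4 (0.0699) and CCT8 (0.0591) missed it. CCT3 missed it without aggregates replicate 3 (0.0758) or diffuse replicate 1 (0.0504), and CCT4 without diffuse replicate 2 (0.0788).

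The lagging subunits had the highest GC content of the 8. The principal transcripts of CCT7 and CCT3 have 51.8 and 51.2% G and C, against 43.1 to 44.7% in the other 6. With offsets that remove each library's trend on GC content and transcript length, the lag grew to -0.29 for CCT7 (adjusted p = 2.73e-12, edgeR) and -0.15 for CCT3 (2.51e-06). The leads of CCT2 and CCT8 shrank to 0.022 (adjusted p = 0.408) and 0.031 (0.233), that of CCT4 was 0.10 (0.00048), and CCT5 came to lead by 0.19 (5.80e-08) and CCT6A by 0.059 (0.0272). CCT5 has the longest principal transcript of the 8, at 3675 nucleotides against 1916 for CCT7. All 8 rises passed under these offsets, from 0.37 (CCT7) to 0.85 (CCT5). Only CCT7, CCT3 and CCT4 departed in the same direction with and without these offsets.

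**Figure D3:**
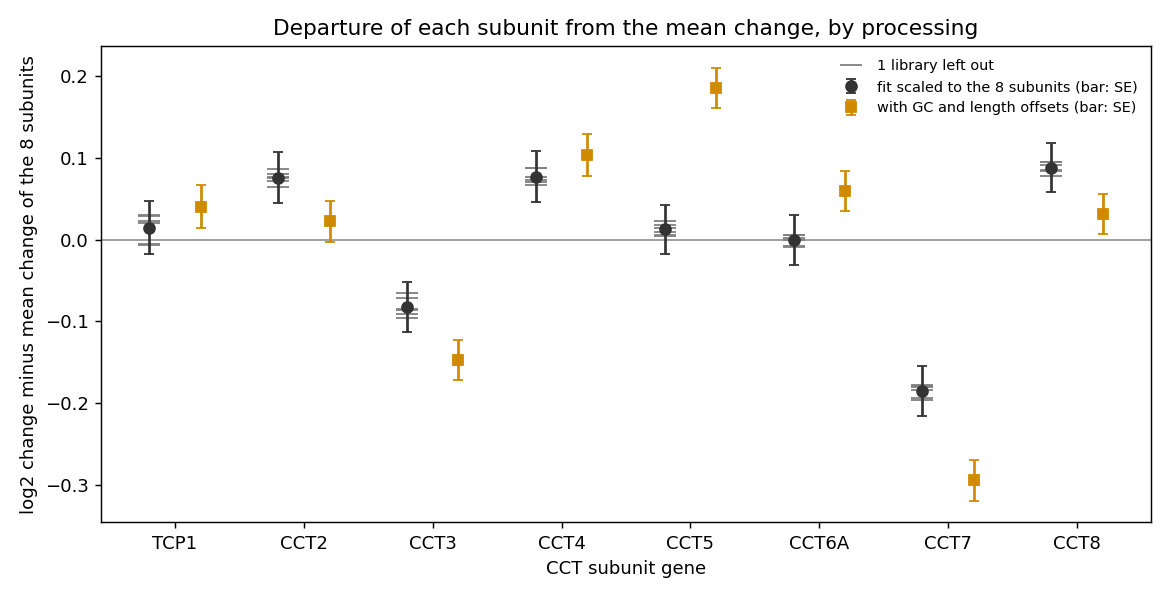
Departure of each subunit's log2 change from the mean change of the 8 (vertical axis), as fitted (black circles, bar SE), with each library left out in turn (grey ticks) and with GC and length offsets (orange squares, bar SE). CCT7 and CCT3 stay below 0 in every fit shown, and CCT5 moves from 0.012 to 0.19 with the offsets.

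Levels of different genes can be compared only per length. In diffuse cells CCT7 had 202 ± 8.87 CPM per kilobase of its principal transcript and CCT8 189 ± 4.87, with ranges that overlapped, followed by CCT3 at 166 ± 6.24. CCT6A (108 ± 2.43), CCT2 (106 ± 2.36) and TCP1 (104 ± 3.09) did not differ beyond their spread, and CCT4 (97.1 ± 4.31) and CCT5 (90.2 ± 3.58) were lowest. In aggregates cells CCT8 led at 336 ± 4.81 CPM per kilobase, ahead of CCT7 at 298 ± 3.78 and CCT3 at 262 ± 3.67. CCT2 (187 ± 2.04), CCT6A (181 ± 3.4), TCP1 (176 ± 5.87) and CCT4 (172 ± 0.973) each overlapped the next in this order, and CCT5 was again lowest at 152 ± 0.921. The ratio of the highest to the lowest subunit was 2.24 in diffuse and 2.21 in aggregates cells. Divided by the union of all annotated exons in its place, the order differed: CCT8 and CCT7 overlapped at its top in diffuse cells, and TCP1 and CCT2 overlapped at its bottom in aggregates cells.

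Sequence upstream of the genes is shown for the subunits with the largest and the smallest rise, and for TCP1 and CCT4. The TCP1 and CCT4 windows shown hold the core of a heat shock element, the site bound by heat shock factors. Windows run from 250 bases before to 50 after the RefSeq start (GRCh38.p14), and 7 of the 8 subunits were matched. Capitals mark every letter match to a searched motif, and no matches overlap. The windows are chr21:29073599-29073898 (minus strand) for CCT8, chr2:73234058-73234357 (plus strand) for CCT7, chr6:159789553-159789852 (minus strand) for TCP1 and chr2:61888607-61888906 (minus strand) for CCT4.
CCT8: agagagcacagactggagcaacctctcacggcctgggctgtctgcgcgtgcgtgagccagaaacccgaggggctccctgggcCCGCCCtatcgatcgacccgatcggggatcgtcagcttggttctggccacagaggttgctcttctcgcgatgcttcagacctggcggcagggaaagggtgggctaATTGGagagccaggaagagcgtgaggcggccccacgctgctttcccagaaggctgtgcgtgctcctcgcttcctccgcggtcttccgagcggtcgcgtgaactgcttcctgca
CCT7: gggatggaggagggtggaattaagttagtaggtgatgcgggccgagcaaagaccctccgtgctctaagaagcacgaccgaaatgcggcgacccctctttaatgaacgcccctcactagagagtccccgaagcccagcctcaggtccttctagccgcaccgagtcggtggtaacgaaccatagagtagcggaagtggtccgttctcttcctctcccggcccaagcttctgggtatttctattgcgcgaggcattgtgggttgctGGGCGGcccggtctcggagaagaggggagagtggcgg
TCP1: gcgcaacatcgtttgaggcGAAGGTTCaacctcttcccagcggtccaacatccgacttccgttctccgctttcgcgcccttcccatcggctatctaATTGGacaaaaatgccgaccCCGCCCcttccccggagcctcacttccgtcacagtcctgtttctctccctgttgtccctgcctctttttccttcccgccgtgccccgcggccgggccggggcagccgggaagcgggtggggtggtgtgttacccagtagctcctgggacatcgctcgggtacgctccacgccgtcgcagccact
CCT4: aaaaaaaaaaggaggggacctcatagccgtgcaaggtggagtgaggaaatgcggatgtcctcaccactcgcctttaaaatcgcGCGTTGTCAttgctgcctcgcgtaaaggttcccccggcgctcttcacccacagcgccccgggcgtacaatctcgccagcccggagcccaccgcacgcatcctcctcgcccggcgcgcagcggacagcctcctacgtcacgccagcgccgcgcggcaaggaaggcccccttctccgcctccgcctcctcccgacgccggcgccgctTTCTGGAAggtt

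In all, 8 motifs were searched on both strands. CCT2 and CCT4 have 2 windows each and count as holding a motif if either does. The shares of all windows are per single window, so the 2 measures are not strictly alike. The CCAAT box (CCAAT) occurred in windows of 4 of the 7 subunits (TCP1, CCT2, CCT3, CCT8) and in 34.6% of 35116 windows of all genes. The GC box (GGGCGG) occurred in 5 of 7 (TCP1, CCT2, CCT3, CCT7, CCT8) and in 45% of all windows. The heat shock element core was in windows of TCP1 and CCT2 as GAANNTTC, which 6.77% of all windows hold, and of CCT4 as TTCNNGAA, which 7.74% hold. In TCP1 it lies at bases -231 to -224 from the start and in the CCT4 window shown at bases 38 to 45. The other CCT4 window (chr2:61888622-61888921) holds no heat shock core. The core of the antioxidant response element (TGACNNNGC, 13.3% of all windows) occurred in CCT4 alone and the ETS site (CCGGAAG, 10.3%) in CCT2 alone. The TATA box (TATAAA, 11.5%) and the ATF/CRE site (TGACGTCA, 1.85%) occurred in none of the 7. The RefSeq starts lay 70 to 616 bases downstream of the start of the principal GENCODE transcript, so each window covers bases downstream of that annotated start, and those of CCT5 and 1 of the 2 of CCT2, which holds its heat shock core, lie wholly downstream of it. The CCT5 window held none of these letters. The windows of CCT3, CCT5, CCT7 and CCT8, which include those of the smallest and the largest rise, held no heat shock core, which says nothing of what binds there.

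Around the chaperonin, 76 genes in 8 lists were followed, of which 71 were tested: 28 rose, 32 fell and 11 did not pass. Of all tested genes 37.8% rose and 37.6% fell. In the fit scaled to the subunits, 5 of the 71 rose more than the complex, 65 changed by less or fell, and 1 could not be told from it. Of all tested genes 6.65% rose more than the complex and 79.8% changed by less or fell. The 5 were HSPD1, HSPE1, PFDN2, PFDN6 and TBCA, and MLST8 was not told apart (difference -0.078, 95% interval -0.17 to 0.012, adjusted p = 0.0995, edgeR). HSPD1 and HSPE1 encode the mitochondrial chaperonin and its lid, a related folding chamber of bacterial type. HSPE1 had 257, 259 and 256 CPM in aggregates and 123, 117 and 118 CPM in diffuse libraries, a rise of 1.11 that exceeded the CCT mean by 0.36 (SE 0.033, adjusted p = 8.02e-12, edgeR). HSPD1 exceeded it by 0.35 (SE 0.031). MKKS and BBS10, CCT-like proteins that help assemble the ciliary BBSome, went in opposite directions, MKKS falling by 0.50 and BBS10 rising by 0.48. BBS12, at 4.21 ± 0.109 against 3.95 ± 0.268 CPM, did not pass, and CCT6B and CCT8L2 did not reach the filter on low counts.

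Prefoldin, the complex that delivers clients to CCT, changed over a wider range than CCT. Among 9 prefoldin and prefoldin-like genes 7 rose and 1 fell (median 0.24). Over all tested genes 37.8% rose and 37.6% fell. PFDN2, shared by the classical and the prefoldin-like complex, had 103, 105 and 107 CPM in aggregates and 58.7, 54.8 and 56.9 CPM in diffuse libraries, a rise of 0.89 (SE 0.04). PFDN6 rose by 0.86 (SE 0.05), from 24.3 ± 0.366 to 44.1 ± 2.07 CPM, and PFDN4 by 0.65, from 43 ± 0.431 to 67.4 ± 3.36 CPM. PFDN5 rose less, by 0.39, and VBP1 by 0.14. PFDN1 had 41.6 ± 0.9 against 40.2 ± 0.179 CPM and did not pass (adjusted p = 0.31, edgeR). The changes of the 6 classical subunits thus spanned 0.048 to 0.89, against 0.56 to 0.83 for CCT. Of the prefoldin-like members, URI1, the scaffold of a complex that helps assemble RNA polymerases, rose by 0.24 and UXT by 0.14. PDRG1 fell without overlap of the groups, from 130.3, 119 and 122 CPM in diffuse to 57.3, 56 and 54.5 CPM in aggregates libraries (log2 fold change -1.15, SE 0.04, adjusted p = 1.40e-46, edgeR).

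Of the phosducin-like co-factors, PDCL, which helps CCT build G protein beta-gamma dimers, fell from 38.4 ± 0.817 to 24.3 ± 1.1 CPM (-0.66, SE 0.05). PDCL3, at 43.2 ± 0.75 against 36.2 ± 1.07 CPM, rose by 0.25, and TXNDC9, which binds CCT and slows its ATPase, rose by 0.44, from 37.7 ± 1.12 to 51 ± 1.08 CPM. PDCL2 was filtered out. Each of the 3 changed differently from the CCT mean (differences of -1.41, -0.49 and -0.31, adjusted p at most 1.44e-07, edgeR). In that fit 79.8% of all tested genes also changed by less than the complex or fell.

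Of the CCT clients, tubulin and WD-repeat genes fell more often than they rose. Among 15 tested tubulin genes 11 fell and 3 rose (median -0.34). Of all tested genes 37.6% fell and 37.8% rose. TUBA1A, an alpha-tubulin, fell from 403, 366 and 392 CPM in diffuse to 151, 137 and 148 CPM in aggregates libraries (-1.41, SE 0.04), and TUBD1, the delta-tubulin of centrioles, from 72.6 ± 2.02 to 23.1 ± 1.33 CPM (-1.66). TUBB2B fell by 0.61, and TUBE1, the epsilon-tubulin, rose by 0.58. Tubulin genes are near-identical to each other in parts, so their separate values are uncertain: the treatment of reads shared by paralogs is not stated. Of 6 tubulin folding cofactors, which act after CCT, 4 rose and 1 fell (median 0.19). TBCA, which holds beta-tubulin released from the chaperonin, rose from 33.3 ± 0.611 to 63.4 ± 4.53 CPM (0.93, SE 0.04), TBCC by 0.49 and ARL2 by 0.24. TBCE, the one that fell, has more than 1 row in the table, and its first row was used.

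Among 9 tested actin and actin-related genes 4 fell, 1 rose and 4 did not pass (median -0.085). The shares of all tested genes were 37.6% fallen and 37.8% risen, so the falls among actin genes were near the share of all genes. ACTG1, cytoplasmic gamma-actin, fell from 2494 ± 124 to 1847 ± 31.5 CPM (-0.43, SE 0.04), ACTR2, of the Arp2/3 complex, by 0.17 and ACTR1A, of dynactin, by 0.14, whereas ACTR1B, also of dynactin, rose by 0.60. ACTB was at 5449 ± 119 against 5780.2 ± 186 CPM (adjusted p = 0.0635, edgeR). Of 22 WD-repeat and other clients 13 fell, 6 rose and 3 did not pass (median -0.13). DCAF7 fell from 291 ± 6.03 to 155 ± 5.98 CPM (-0.91), STRN, a scaffold of the STRIPAK phosphatase complex, by 0.61, and FZR1, an activator of the anaphase-promoting complex, by 0.54. MLST8, a subunit of the mTOR complexes, rose from 44.5 ± 3.08 to 70.7 ± 2.62 CPM (0.67, SE 0.04). Of the heat shock factors, HSF1 rose from 179 ± 6.84 to 219 ± 9.44 CPM (0.29, SE 0.04). HSF2, at 28.4 ± 1.49 against 26.2 ± 1.3 CPM, rose by 0.12 with groups that overlapped (adjusted p = 0.0294, edgeR).

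**Figure D4:**
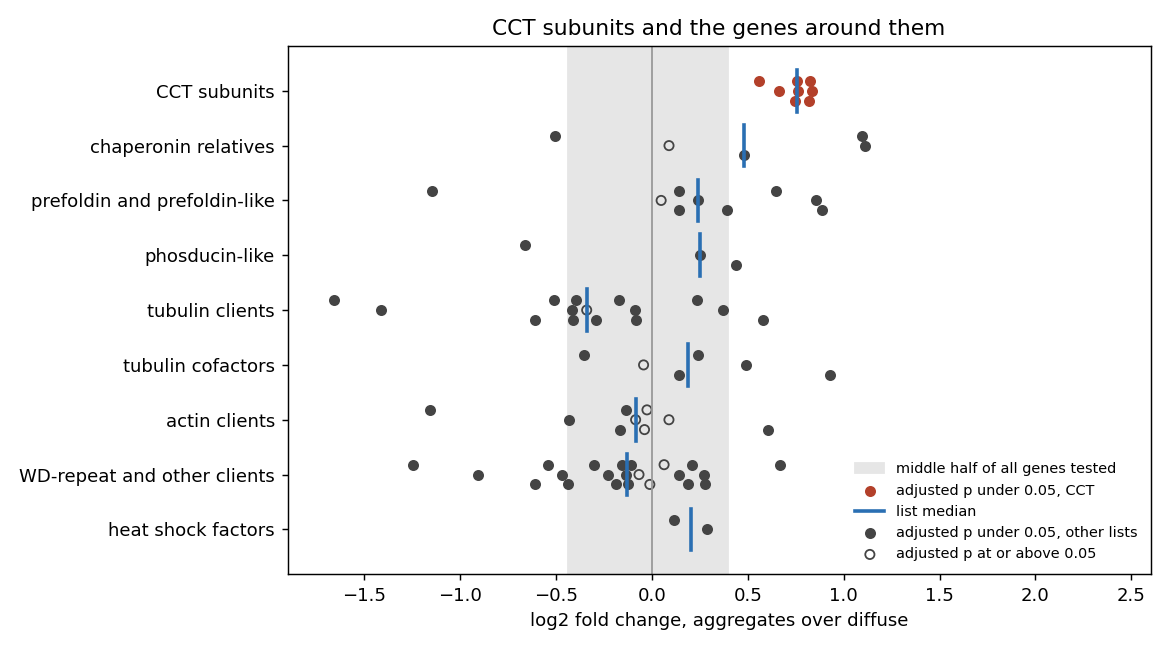
Log2 fold change, aggregates over diffuse (horizontal axis), of the CCT subunits (red) and of the tested genes in each list around them (black; open circles did not pass an adjusted p of 0.05), with blue lines for list medians and a grey band for the interquartile range of all tested genes (-0.44 to 0.40). The CCT subunits lie together between 0.56 and 0.83, to the right of the band, while the prefoldin genes spread from -1.15 to 0.89.

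Among non-members averaging 50 CPM or more, the 5 genes whose profile over the 6 libraries was nearest to the mean CCT profile were HNRNPF, FKBP1A, YBX3, TIGAR and SMS. Their root mean square distances were 0.0093 to 0.017 (log2 units), and their log2 fold changes 0.75 to 0.77. The subunits themselves lay at 0.012 (CCT6A) to 0.093 (CCT7) from their own mean. Each of these 5 genes was nearer to the CCT profile than 6 of the 8 subunits were. They were picked for the smallest distances, so this says little about how alike the subunits are. Ranked by this distance among all genes averaging 50 CPM or more, CCT6A was at 2, CCT5 at 4, TCP1 at 42 and CCT2 at 90. CCT4 was at 102, CCT8 at 122, CCT3 at 124 and CCT7 at 363.

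Spliced reads give a view of the same genes along their length. For annotated introns with at least 1000 spliced reads over the 6 libraries, the log2 ratio of aggregates to diffuse was 0.52 to 0.65 over 8 introns of CCT7 and 0.65 to 0.72 over 6 introns of CCT3. It was 0.79 to 0.92 over 5 introns of CCT8 and 0.77 to 0.90 over 12 introns of CCT4. CCT7 was thus lowest at every such intron, but by a narrow margin, its highest value being 0.649 against 0.654 for the lowest of CCT3. No error was computed for these ratios. These are the same libraries, not further replicates.

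The CCT genes held 34 tested intron clusters, groups of introns that share a splice site. Of these 4 changed (in TCP1, CCT4, CCT6A and CCT7), where 5.02% of all tested clusters changed (edgeR diffSpliceDGE, Simes, adjusted over all clusters). By the cluster F test of the same fit, those in CCT4 and CCT6A passed again (adjusted p = 0.0186 and 0.022). Those in TCP1 and CCT7 did not pass the F test (0.072 and 0.116), whereas a cluster of CCT8 did (0.020). No share of all clusters was computed for the F test. The number changed by the Simes test was 1 to 2 without any 1 library and 1 when replicate numbers entered the fit as a block. The use of no intron in these clusters moved by more than 2.47 percentage points, the largest difference being in CCT8. Among their 148 introns 7 passed on their own, and all 7 were used less in aggregates cells, each under 1% of its cluster. Of all 144620 tested introns 2.05% passed, 1.44% being used less and 0.614% used more. Of the 7, 6 skip 1 or more exons of the principal transcript and 5 are absent from GENCODE 29. In CCT7 the annotated intron at chromosome 2, 73234385 to 73247761, which skips 5 exons, took 0.279, 0.424 and 0.291% in aggregates and 0.889, 0.608 and 0.468% in diffuse libraries (adjusted p = 0.0176). In CCT4 the unannotated intron 61877053 to 61878868 had 1, 4 and 2 reads in aggregates and 7, 7 and 13 in diffuse libraries, despite more reads in the former (adjusted p = 0.0159).

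The share of spliced reads on unannotated introns was lower in aggregates cells for the 8 genes together. It was 0.146, 0.128 and 0.12% in aggregates and 0.235, 0.234 and 0.232% in diffuse libraries. The mean was lower in aggregates cells in each of the 8 genes, from 0.0326 ± 0.0262 against 0.137 ± 0.0372% in CCT6A to 0.302 ± 0.0379 against 0.44 ± 0.0421% in CCT8, and in CCT2 the groups overlapped. Over all introns of the table the same share was 1.41 to 1.46% in aggregates and 1.69 to 1.78% in diffuse libraries, so a lower share was not limited to CCT. With 2 to 102 such reads per subunit and library, these shares carry a large counting error.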

How the data were processed

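PolyA RNA of sorted U2OS cells was sequenced in 6 stranded libraries, 3 a group. Both deposited tables hold whole-number counts that the authors did not normalize. One lists genes, the other spliced reads on introns in LeafCutter clusters (153462 introns in 39496 clusters). The submitters' processing notes name STAR 2.7.11a, fastp 0.23.2 and hg38. No source used here states the gene counter, its annotation or its strand setting. Reads on overlapping opposite-strand exons are therefore uncertain, for TCP1 with ACAT2 and for CCT4 with COMMD1 (5208 and 5277 counts over the 6 libraries). GENCODE 29 lists 13 pseudogene copies of the subunits and 0 have a row in the table.

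The gene test was edgeR 4.0.16 under R 4.3.3 (TMM, filterByExpr, robust quasi-likelihood fit, threshold 0.05). Levels are TMM-scaled CPM. Movement in step was tested in the same fit with libraries scaled to the geometric mean of the 8 subunit counts. Intron clusters needed 10 counts in every library and 2 introns with 10 counts in all. Both gene fits were tested on simulated data in which far fewer genes changed than here. The simulation therefore does not test the scaling under changes as broad as these. Alternatives were DESeq2 1.42.0, other scalings and filters, left-out libraries, a replicate block, a fold of 1.2 and GC and length offsets (GENCODE 29 principal transcripts, 96.9% of tested genes matched). Promoter windows are from RefSeq (GRCh38.p14).

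Members, lists and tests were chosen with earlier results of these data known. Named genes are the 8 subunits, all prefoldin and phosducin-like genes and up to 4 per other list with the largest changes, at least 5 CPM and groups that do not overlap. BBS12, ACTB and HSF2 were named after their values were seen. The minimum of 1000 reads for intron ratios and the description by sides of the ring were chosen after the values were seen. No replicate pair agreed within counting error (chi-square per degree of freedom 2.56 to 6.25). P-values measure the spread between transfections of 1 line, sorted and sequenced as 1 batch.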

Additional observations from a re-analysis of the deposited data

How the results depend on the processing

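All 104 alternative values of the 8 subunits' log2 fold changes kept their direction and their side of the threshold, and the number risen was 8 in every alternative run. The summed level stayed within 1 SD of its value under other scalings and without any 1 library. With GC and length offsets the median rise of the 8 subunits was 0.70 in place of 0.76, and the SD of their departures 0.15 in place of 0.093. Against a fold of 1.2 the number of departing subunits was 0, and the surrounding lists had 14 risen and 18 fallen genes in place of 28 and 32. Of 96 alternative values of the departures 15 lost their call, 2 gained one (CCT5 and CCT6A, with GC and length offsets) and 8 turned sign, all of them in CCT6A and TCP1, whose departures had not passed. CCT6A went from -0.00069 to 0.0064 when scaled to the summed counts, to 0.059 with GC and length offsets and to between -0.0096 and 0.006 without any 1 library, and TCP1 from 0.015 to between -0.0065 and 0.03 without any 1 library. Without any 1 library, 2 to 5 subunits departed and 1 to 2 CCT intron clusters changed. The labels give both groups replicate numbers 1 to 3 and do not call them pairs, so the main fit did not read them as pairs. Deviations of same-numbered libraries correlated at 0.036, 0.079 and 0.054, and those of differently numbered libraries at -0.0552 to -0.0005. Whether the numbers mark a weak pairing was not tested. In a fit with these numbers as a replicate block the number of risen subunits was 8, that of departing subunits 5, and that of changed CCT intron clusters 1 in place of 4; the surrounding lists had 28 risen and 32 fallen genes. The causes of these differences were not tested. At 8819 to 31273 counts per subunit and library, counting error is small for the gene levels and limits only the rare introns.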
